A study of Homo sapiens with 24 samples.

Results

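The SR proteins examined here are 10 serine/arginine-rich splicing factor genes, SRSF1, SRSF2, SRSF3, SRSF4, SRSF5, SRSF6, SRSF7, SRSF9, SRSF10 and SRSF11. Their members in the data are the 1306 splice-site rows, of 1823643 used in all, that lie on the strand and within the GRCh37 span of these genes. Of these, 437 are exon-intron boundary rows, which hold the reads that run unspliced across a splice site, and 869 are spliced rows, which hold the reads of a junction. The rows belong to 439 splice sites, of which 149 had reads in all 24 samples. Each value is a PSI (percent spliced in), the share of the reads at a splice site that a row takes, so more unspliced and fewer spliced molecules cannot be told apart.

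The 24 samples are poly(A) RNA from HCT-116, a human colorectal carcinoma line, in which PHF5A, a subunit of the SF3b complex, was expressed from a lentivirus over the endogenous gene, either as the wild type (WT) or carrying the Y36C substitution. Cells of each genotype received DMSO, the vehicle, or E7107, a pladienolide-type splicing modulator that binds SF3b, and each of the 4 groups has 6 samples. All groups therefore carry endogenous PHF5A and a transgene, and the labels do not say which of the doses in the study's methods was used. The study's methods say that the treatment was done in 6 replicates, but not whether the cells of each had been grown or transduced separately, so p-values measure the spread between these samples, which may be technical.

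SR proteins bind exonic enhancer sequences through an RNA recognition motif and recruit the spliceosome through a serine/arginine-rich domain. Most of them control their own level. When the protein is plentiful, a poison exon that carries a premature stop codon is spliced into its mRNA, or a 3′ UTR intron is removed, and the product is degraded by nonsense-mediated decay. SF3b holds the branch point adenosine of the intron, so that both the coding introns and the poison exons of these genes pass through the step that E7107 blocks.

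The annotation held 17 poison exons in 8 of the 10 genes, none of them in SRSF1 or SRSF5. A poison exon was taken as an internal exon of a transcript annotated as subject to nonsense-mediated decay that lies inside an intron of a protein-coding transcript. Of the 16 to which the reading frame of the reference transcript before the enclosing intron applied, 15 held an in-frame stop in that frame. The 4 shown first are among these and are shown because the inclusion results turn on them. Each line gives the last 40 intron bases and the exon up to its first in-frame stop, with the acceptor dinucleotide and the stop codon in capitals, in GRCh37. The SRSF2 line shows the last 25 intron bases before its 3′ UTR cassette exon and the first 5 exon bases, and the acceptor alone is in capitals.
SRSF3 poison exon, chr6:36567558-36567631, plus strand: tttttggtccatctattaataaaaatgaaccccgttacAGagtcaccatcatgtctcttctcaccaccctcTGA
SRSF6 poison exon, chr20:42087753-42087944, plus strand: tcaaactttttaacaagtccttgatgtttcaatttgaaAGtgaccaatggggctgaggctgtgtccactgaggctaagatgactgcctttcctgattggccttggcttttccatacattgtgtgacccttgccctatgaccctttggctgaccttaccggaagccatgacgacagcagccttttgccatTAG
SRSF7 poison exon, chr2:38976461-38976528, minus strand: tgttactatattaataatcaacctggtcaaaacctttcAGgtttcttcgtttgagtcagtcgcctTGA
SRSF11 poison exon, chr1:70697502-70697591, plus strand: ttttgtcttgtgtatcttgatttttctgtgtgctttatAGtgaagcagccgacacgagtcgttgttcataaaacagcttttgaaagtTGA
SRSF2 cassette exon, chr17:74731953-74731982, minus strand: acgtctgcattttccccctttaaAGctgcg

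The stop codon began at base 32 of the 456-base SRSF3 exon, base 150 of the 268-base SRSF6 exon, base 26 of the 449-base SRSF7 exon and base 48 of the 117-base SRSF11 exon. For each of the 4, the annotation ends the coding sequence of a decay-prone transcript at the same place. For other exons the frame of the reference transcript need not be that of the decay-prone transcript. The annotation ends no coding sequence in the 184-, 195- and 228-base SRSF4 exons or the 363-base SRSF10 exon. In the 175-base SRSF4 exon it does so at base 53, where the reference frame gave a stop at base 119. The frame was not followed into the SRSF2 exon, which lies after the coding sequence.

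Of the 53 introns in the reference (MANE) transcripts of the 10 genes, 52 began with GT and ended with AG. The exception was intron 2 of SRSF10, which runs from AT to AC, ends that are typical of introns removed by the minor spliceosome. Its ends are shown because its retention under E7107 rose in both genotypes, and those of SRSF5 intron 5 because its retention fell in WT cells. The terminal dinucleotides are in capitals.
SRSF10 intron 2, 5′ end, chr1:24305183-24305202, minus strand: ATatcctttcttcagatggc
SRSF10 intron 2, 3′ end, chr1:24301568-24301612, minus strand: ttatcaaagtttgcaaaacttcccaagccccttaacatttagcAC
SRSF5 intron 5, 5′ end, chr14:70235969-70235988, plus strand: GTttgttgaaatacagtttt
SRSF5 intron 5, 3′ end, chr14:70237139-70237183, plus strand: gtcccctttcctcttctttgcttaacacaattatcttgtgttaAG

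Splice sites with reads numbered 337517 to 340081 per sample in WT cells on DMSO and 281164 to 283548 in WT cells on E7107. In Y36C cells they numbered 336249 to 338547 on DMSO and 328458 to 331604 on E7107. The files give percentages only, so the read depth behind each value is unknown, and the part that the number of sites read has in the results was not tested. Of the epithelial markers, CDH1 had reads in all 12 DMSO samples at 30 of 30 annotated sites, KRT18 at 14 of 14, EPCAM at 17 of 20, KRT8 at 21 of 26 and LGALS4 at 0 of 4. No row lay in the leukocyte gene PTPRC, while 95 of 96 annotated sites of the fibroblast collagen gene COL1A1 had reads, and the endothelial gene PECAM1 was not in the annotation by that name.

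In WT cells E7107 raised the retention of introns in all 10 SR genes. Of 149 boundary rows tested, 125 rose and 2 fell (limma on natural log-odds, adjusted p of 0.05 or less), that is 83.9 and 1.34% of them. Over all 107055 boundary rows of the series the same test called 70.8% higher and 5.78% lower. The median change of the member rows was 11.2 percentage points, beside 11.18 over all boundary rows. Rows were tested where the site had reads in all 12 samples compared and at least 1 of the groups had no sample at a PSI of 0, so a row that passed through the E7107 group alone had to rise. Likewise, a row that passed through the DMSO group alone was selected to fall, and the same filter held for spliced rows.

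At the level of genes, the mean boundary PSI over all sites with reads in every sample gives the retention of each member. These means are descriptions without a test. In SRSF1, the prototype of the family, mean retention ran from 43.1 to 45.7% (median 44.05%) in WT cells on DMSO and from 64.0 to 65.9% (median 65.0%) on E7107. SRSF2, which also acts in transcription elongation, went from 59.3 to 60.3% (median 59.8%) to 74.1 to 75.1% (median 74.7%). In both genes every E7107 sample lay above every DMSO sample, and both means include little-used annotated sites at which almost all reads run through.

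SRSF3, the smallest member, showed a mean retention of 9.50 to 12.2% on DMSO (median 10.4%) and 21.4 to 22.1% on E7107 (median 21.8%). SRSF7, which carries a zinc knuckle, moved from 14.5 to 15.4% (median 15.1%) to 21.7 to 23.7% (median 22.8%), a change of 7.62 points. The groups did not overlap in either gene. SRSF4 went from 4.55 to 6.38% (median 5.52%) to 23.3 to 34.7% (median 28.2%), a change of 22.8 points, and its E7107 samples were spread more widely than those of any other member.

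SRSF5 rose from a median of 20.9% (20.4 to 21.8%) to 32.4% (31.1 to 33.6%), SRSF6 from 20.5% (19.7 to 21.1%) to 35.7% (34.1 to 36.5%) and SRSF9 from 28.1% (27.8 to 29.0%) to 38.5% (34.9 to 44.8%). SRSF10, which represses splicing in its dephosphorylated form, rose from 25.9% (24.4 to 26.8%) to 46.8% (42.6 to 48.8%). SRSF11 rose from 15.0% (13.3 to 16.2%) to 32.9% (31.5 to 34.2%). In each of these 5 genes the samples on E7107 were all above those on DMSO. How often the groups of other genes were apart was not computed, here or for the gene means below. Separate or overlapping groups are therefore not shown to be particular to SR genes.

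**Figure D1:**
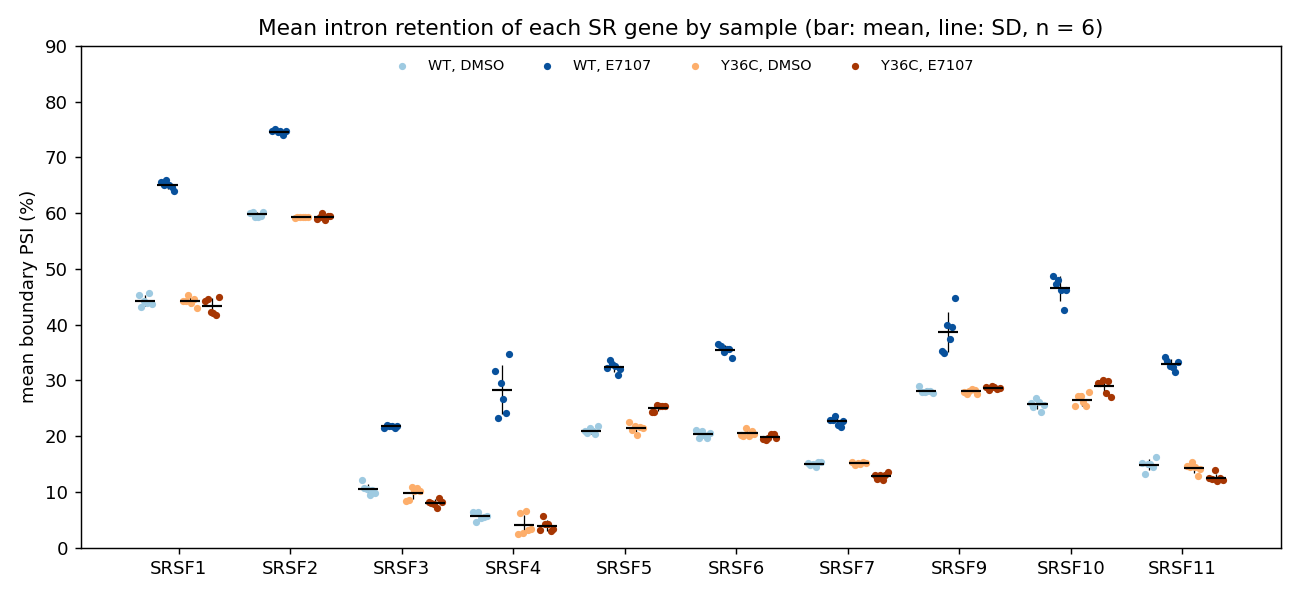
Mean boundary PSI (%, y axis) of each SR gene (x axis) in the 24 samples; points are samples, bars the mean and vertical lines the SD of 6 samples per group. The WT samples on E7107 lie above the other 3 groups in every gene, from 21.4 to 22.1% in SRSF3 up to 74.1 to 75.1% in SRSF2.

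Retention in the other 7050 genes with at least 11 boundary rows read in all samples had medians of 3.74% in WT cells on DMSO and 12.3% on E7107. The corresponding medians of the 10 SR genes were 20.7 and 34.2%. Gene means also take in little-used sites. By the median over a gene's boundary rows, WT cells on DMSO stood lower than by the mean in every SR gene but SRSF2. Outside SRSF2 that median, averaged over samples, ran from 0.28% in SRSF3 to 12.2% in SRSF1. It was not taken for the other genes, so a higher level of retained introns in SR genes is not shown. Among those other genes the 5 whose 4 group means lay nearest to the SR medians, by Euclidean distance over the 4 groups, were CD151 (2.05 points), SERPINH1 (2.24), SLC3A2 (2.42), NOMO2 (2.58) and TBRG1 (2.60).

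Introns differed widely within a gene. The retention of an intron is given as the mean of the PSI at both its boundaries, which can differ from each other. All 53 reference introns had reads at both boundaries in all samples, and 42 of them started under 5% retention in WT cells on DMSO. Under E7107 both boundaries rose in 47 introns and 1 boundary in 5, and in 1 intron both fell. Over all boundary rows of the series 70.8% rose. The share of introns with both boundaries up was not computed outside these genes, so no excess over the series is shown by these counts. Mean retention of the 53 introns had a median of 1.21% on DMSO (0.03 to 48.6%) and 17.3% on E7107 (2.99 to 51.0%). The change was weakly related to intron length (Spearman rho = -0.32 across 53 introns that share libraries and, within a gene, transcripts) and hardly to GC content (rho = -0.07).

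A boundary read shows that a site was not used in that molecule, which can also happen where the molecule uses another site further along, so a boundary value is not a count of fully retained introns. In 5 genes the annotated intron with the largest change in WT cells belonged to the reference transcript. Intron 11 of SRSF11 (chr1:70716187-70716290, 104 bases), a gene whose product lies further from the classical SR proteins in sequence, had retention of 0.81 to 1.94% (median 1.36%) on DMSO and 38.5 to 53.6% (median 45.5%) on E7107 in WT cells. Intron 3 of SRSF1 (chr17:56082962-56083161, 200 bases) went from 10.6 to 13.1% (median 11.6%) to 48.5 to 54.7% (median 50.4%). The groups were far apart in both, with log-odds of 3.84 ± 0.17 (SE, adjusted p = 1.76e-09) and 2.04 ± 0.11 (adjusted p = 6.4e-09) at the 3′ boundary.

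Intron 2 of SRSF4 (chr1:29485999-29486886), which holds 2 of its annotated poison exons, went from a median of 5.58% (4.17 to 5.92%) to 40.1% (32.9 to 48.4%). Intron 1 of SRSF6 (chr20:42086781-42087000) went from 3.32% (2.84 to 4.90%) to 30.1% (28.4 to 33.6%). Intron 1 of SRSF7 (chr2:38977337-38978370) went from 0.37% (0.06 to 0.45%) to 12.2% (8.05 to 13.6%). All 6 of these boundaries rose, with adjusted p from 2.59e-09 to 7.52e-06, and none of these groups overlapped.

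In the remaining 5 genes the annotated intron with the largest change was one outside the reference transcript. In SRSF2 it followed the 3′ UTR cassette exon (chr17:74731241-74731853), and its retention rose from a median of 44.9% (43.0 to 47.4%) to 76.2% (75.5 to 76.8%). In SRSF3 it followed the 456-base poison exon (chr6:36568054-36568928) and rose from 28.7% (28.0 to 32.4%) to 52.2% (51.4 to 53.2%). In SRSF10 it preceded the 363-base poison exon (chr1:24304764-24305142) and rose from 24.8% (19.2 to 34.1%) to 67.7% (61.8 to 74.5%). These 3 introns lie next to a poison or cassette exon, and no sample on E7107 reached down to a DMSO sample. In SRSF2 and SRSF3 the boundaries of the intron were unlike. Means in SRSF2 went from 70.1 to 99.0% at the 5′ boundary and from 19.8 to 53.4% at the 3′ boundary. Those in SRSF3 went from 56.3 to 94.5% at the 5′ boundary and from 2.65 to 9.98% at the 3′ boundary. In SRSF5 the intron with the largest change was a 5′ intron of 757 bases (chr14:70234098-70234854), at 13.0% (11.1 to 15.2%) and 45.4% (39.7 to 49.9%). Its 5′ boundary went from a mean of 22.5 to 71.4% and its 3′ boundary from 3.45 to 18.6%. In SRSF9 the intron with the largest change had 30035 bases (chr12:120903591-120933625), at 0.16% (0 to 3.47%) and 19.2% (4.13 to 42.4%). Its 3′ boundary alone, which it shares with intron 1 of the reference transcript, could be tested. That row went from a mean of 0.196 to 8.94% and passed the filter through the E7107 group alone, so it was selected to rise. The untested 5′ boundary went from a mean of 1.65 to 29.3%.

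The smallest changes fell partly at sites that were barely used in any group. In SRSF1 (chr17:56082403-56082774), SRSF2 (chr17:74732526-74732916) and SRSF6 (chr20:42089493-42091983) the annotated intron with the smallest change had a median retention of 98.8, 99.7 and 98.9% in WT cells on DMSO and 99.2, 99.7 and 98.4% on E7107. The groups overlapped in all 3, and of these boundaries the 5′ one in SRSF1 was called (log-odds 0.385 ± 0.121, adjusted p = 0.0158). In SRSF3 it was intron 5 (chr6:36569572-36569738), at a median of 0.22% and 3.08%, and in SRSF9 intron 3 (chr12:120899966-120901752), at 3.47% and 5.01%, of which the 5′ boundary alone was called (log-odds 0.784 ± 0.151, adjusted p = 0.000628). Intron 2 of SRSF11 (chr1:70694239-70697950), which holds its 3 poison exons, was at 12.7% (10.5 to 15.1%) and 15.7% (9.84 to 23.6%), with overlapping groups and a rise called at the 5′ boundary (adjusted p = 0.0215).

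The 21128-base intron 1 of SRSF4 (chr1:29487030-29508157), which contains 3 of its poison exons, was at 3.87% (3.48 to 4.27%) on DMSO and 8.10% (2.78 to 13.2%) on E7107, with overlapping groups and a rise called at the 3′ boundary (adjusted p = 0.00986). In SRSF10 the smallest change was at chr1:24294214-24298062, at 7.92% (5.74 to 8.75%) and 16.4% (14.6 to 20.9%), and its 3′ boundary did not pass the test (adjusted p = 0.14). In SRSF7 it was the intron after the poison exon (chr2:38975796-38976039), at 44.4% (36.02 to 47.4%) and 48.3% (42.5 to 49.4%), where the 5′ boundary did not pass (adjusted p = 0.673) and the 3′ boundary rose from 9.87 to 15.5% (adjusted p = 0.00943).

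In cells expressing Y36C PHF5A, E7107 left most SR introns near their DMSO level. Of 139 boundary rows tested, 23 rose and 10 fell, 16.5 and 7.19% of the rows, where 26.8% of the 87156 boundary rows of the series rose and 1.26% fell. The median change was 0.34 points for the members and 2.02 points over all rows. The rising rows were in 6 genes, with 9 in SRSF5, and the falling rows in 6 genes, with 4 in SRSF7 and 2 in SRSF3.

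Mean retention of the genes changed by -2.32 to 3.59 points. The groups overlapped in 8 of the 10 genes. In SRSF5, mean retention was 20.2 to 22.5% (median 21.6%) on DMSO and 24.3 to 25.5% (median 25.4%) on E7107, and in SRSF7 it was 14.8 to 15.3% (median 15.2%) and 12.1 to 13.6% (median 13.0%). The Y36C groups of both genes were apart, in opposite directions, but the median over the boundary rows of SRSF7 changed by 0.12 points, without the fall.

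Without drug, no row of these genes was called between the genotypes. Mean retention overlapped between WT and Y36C cells on DMSO in all 10, and limma called 0 of 150 boundary rows, 0 of 227 spliced rows and 0 of 173 spliced rows taken as a share of spliced reads. At an unadjusted p under 0.05 there were 17, 21 and 16 such rows. Each of these is a larger share than the 0.05 expected without any difference, and the share over all rows was not computed. Over all boundary rows 0.0877% were higher and 0.0778% lower in Y36C cells, over all spliced rows 0.0513 and 0.0456%, and over spliced shares 0.0742 and 0.0682%. With shares this low over the series, the absence of called member rows shows nothing particular to SR genes.

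The effect of E7107 differed between genotypes in the same model over 24 samples. Its change in boundary PSI was lower in Y36C than in WT cells in 118 of 146 member rows and higher in 2, where 54.9 and 8.94% of all 115156 boundary rows were called. The 2 rows called higher were both boundaries of SRSF5 intron 5.

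**Figure D2:**
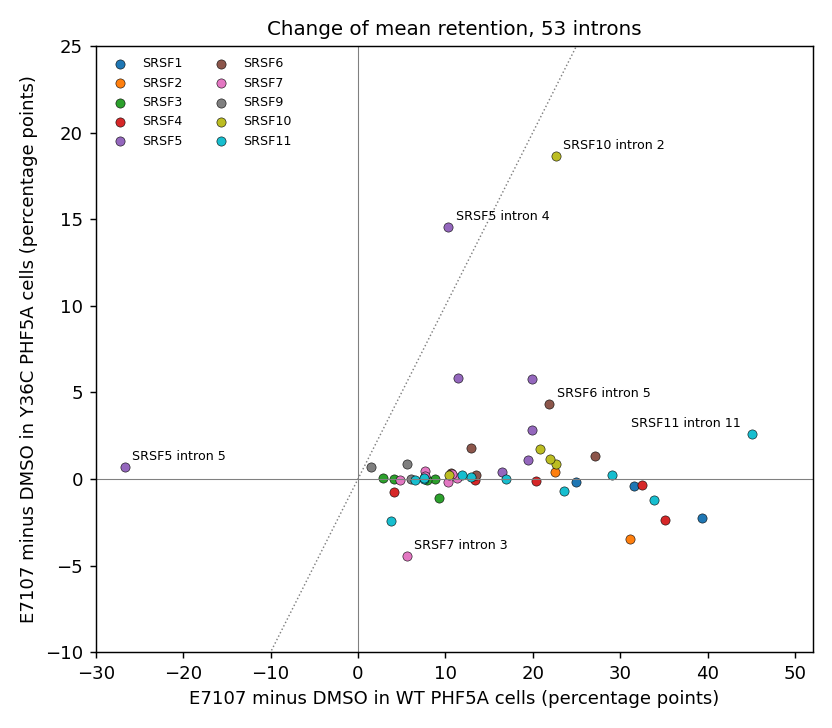
Change of mean retention under E7107 (percentage points) in WT cells (x axis) against Y36C cells (y axis) for 53 reference introns, coloured by gene; each point is a difference of means of 6 samples and the dotted line marks equal change. Most points lie between 0 and 45 points on the x axis and near 0 on the y axis, while SRSF5 intron 5 lies at -26.7 in WT cells and SRSF10 intron 2 and SRSF5 intron 4 lie near or above the line.

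SRSF5 showed the widest range. Intron 5 (chr14:70235969-70237183, 1215 bases) was retained at 46.5 to 51.1% (median 48.2%) in WT cells on DMSO and at 20.2 to 23.3% (median 22.4%) on E7107. In Y36C cells it was at 38.5 to 53.5% (median 48.7%) and 46.8 to 51.1% (median 48.3%). WT cells on E7107 stood below the other groups, which overlapped with each other. The fall was called at both ends in WT cells (log-odds -0.966 ± 0.119, adjusted p = 1.4e-05, and -1.445 ± 0.117, adjusted p = 3.01e-07), and the interaction was 1.00 (adjusted p = 1.01e-05) and 1.46 (adjusted p = 3.31e-08).

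The junction that removes this intron rose in step. At its acceptor, it took 47.3 to 51.9% of reads (median 47.8%) in WT cells on DMSO and 78.4 to 85.5% (median 81.8%) on E7107 (log-odds 1.53 ± 0.12, adjusted p = 2.13e-07), and it was the spliced row of SRSF5 with the largest rise. In Y36C cells the medians were 50.2 and 51.4%, with overlapping groups.

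The neighbouring intron 4 (chr14:70235614-70235898, 285 bases) moved the other way and in both genotypes. Its retention was 10.6 to 15.6% (median 13.8%) in WT cells on DMSO, 21.4 to 25.5% (median 24.2%) on E7107, 14.1 to 18.8% (median 17.6%) in Y36C cells on DMSO and 30.1 to 36.1% (median 31.0%) on E7107. Both boundaries rose in both genotypes, with log-odds of 0.66 to 0.69 in WT and 0.711 to 0.848 in Y36C cells, and the interaction did not pass the test (0.051 ± 0.165, adjusted p = 0.828, and 0.158 ± 0.14, adjusted p = 0.378). Introns 6 and 7 of SRSF5 also rose in Y36C cells, from medians of 4.93 to 10.5% and from 1.32 to 3.88%, less than in WT cells, where they reached 24.1 and 20.8%. With a replicate block in the model, the 5′ boundary of intron 6 and the 3′ boundary of intron 7 were no longer called in Y36C cells (limma, adjusted p = 0.0619 and 0.076).

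In SRSF10 the AT-AC intron 2 (chr1:24301568-24305202, 3635 bases) rose in both genotypes. It was at 11.5 to 14.0% (median 13.4%) in WT cells on DMSO and 31.7 to 40.6% (median 35.2%) on E7107. Y36C cells stood at 13.0 to 15.5% (median 14.0%) and 29.8 to 34.1% (median 33.3%). The groups on E7107 overlapped between genotypes, each above both DMSO groups, and the interaction was -0.192 ± 0.151 (adjusted p = 0.316) at the 5′ and -0.249 ± 0.144 (adjusted p = 0.164) at the 3′ boundary, so a difference between the genotypes was not shown. The other 4 reference introns of SRSF10, all GT-AG, rose in WT cells to medians between 11.3 and 29.3%, and none of their tested boundaries was called in Y36C cells. Outside the reference transcript, the 3′ boundary of the GT-AG intron chr1:24294214-24298062 did rise in Y36C cells. Its median went from 10.5 to 17.5%, with overlapping groups (log-odds 0.563 ± 0.147, adjusted p = 0.0156), and the interaction was not called (0.223 ± 0.227, adjusted p = 0.444).

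**Figure D3:**
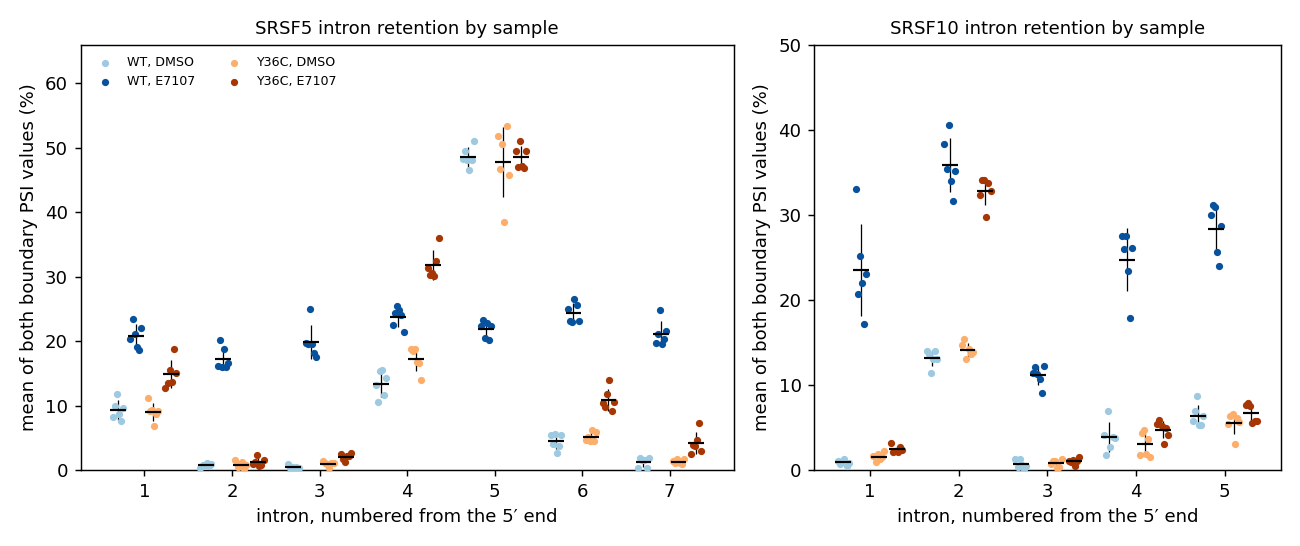
Mean of both boundary PSI values (%, y axis) for each intron of SRSF5 and SRSF10 (x axis, numbered from the 5′ end); points are samples, bars the mean and lines the SD of 6 samples per group. SRSF5 intron 5 is lowest in WT cells on E7107 (median 22.4%), and SRSF10 intron 2 is above its DMSO samples in Y36C cells (median 33.3% on E7107) and in WT cells (median 35.2% on E7107).

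Retention of SRSF6 intron 5 (chr20:42089239-42089342, 104 bases), singled out after its values were seen, was 0.69 to 1.09% (median 0.95%) in Y36C cells on DMSO and 4.62 to 6.52% (median 5.00%) on E7107, beside 0.95 and 23.2% in WT cells. SRSF11 intron 11 had medians of 1.19 and 3.76% in Y36C cells. Both boundaries of both introns were called in Y36C cells, and the interaction was called at each of them, from -1.51 to -2.97 (adjusted p from 4.2e-09 to 1.27e-08). In Y36C cells both SRSF11 rows passed the filter through the E7107 group alone, so they were selected to rise there.

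In SRSF1 the 921-base intron of the 3′ UTR (chr17:56081363-56082283), whose removal is the kind of event that exposes an mRNA to decay, was little spliced in any group. Its retention was 91.2 to 93.4% (median 92.1%) in WT cells on DMSO, 98.8 to 99.7% (median 99.0%) on E7107, 89.9 to 93.7% (median 92.3%) in Y36C cells on DMSO and 95.3 to 97.0% (median 96.0%) on E7107. Splicing of this intron thus fell in both genotypes without overlap, and further in WT cells (interaction -0.956 ± 0.144, adjusted p = 6.61e-06, at the 3′ boundary). This intron was singled out after its values were seen.

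Most spliced rows fell in WT cells. In WT cells 16 of 210 spliced member rows rose and 144 fell (7.62 and 68.6%), where 7.35 and 39.8% of all rows were called. In Y36C cells 28 of 226 rose and 32 fell (12.4 and 14.2%), where 7.08 and 14.9% of all rows were called. The interaction called 132 of 220 higher and 16 lower in Y36C cells, beside 32.6 and 9.06% of all rows.

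With boundary reads removed, so that a row is a share of the spliced reads at its site, fewer rows changed. In WT cells 24 of 174 rose and 36 fell (13.8 and 20.7%, background 7.81 and 8.52%), and in Y36C cells 24 of 180 rose and 24 fell (13.3% each, background 9.48 and 10.6%). The interaction called 36 of 194 higher and 24 lower (18.6 and 12.4%, background 9.66 and 9.42%). Among changes of at least 10 points the members' shares were near the background, at 2.87 and 4.02% (background 3.19 and 4%) in WT cells, 3.33% each (background 3.4 and 4.03%) in Y36C cells and 3.09% each (background 4.3 and 4.16%) for the interaction. These rows carry the choice between alternative junctions, poison exons included.

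All 17 poison exons had reads at their flanking sites in all samples, but 4 alone had reads at both of their own sites in all of them. These were the exons of SRSF2 (104 bases), SRSF3 (456 bases), SRSF7 (449 bases) and SRSF10 (363 bases). Inclusion of an exon can be read at the donor upstream of it and at the acceptor downstream of it, and both are given where they differ.

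The poison exon of SRSF6 (chr20:42087793-42088060, 268 bases, plus strand, in intron 2) was included more under E7107 in Y36C cells. Of the reads at the downstream acceptor it took 7.10 to 9.84% (median 7.90%) in WT cells on DMSO and 7.24 to 9.90% (median 9.11%) on E7107. In Y36C cells it took 8.60 to 11.2% (median 9.78%) and 16.8 to 25.6% (median 23.8%). The WT groups overlapped while all Y36C samples on E7107 lay above every other sample. The change was 0.933 ± 0.120 in Y36C cells (adjusted p = 0.000197) and 0.063 ± 0.115 in WT cells (adjusted p = 0.672), and the interaction was 0.870 ± 0.146 (adjusted p = 2.67e-05).

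At the upstream donor the same exon took a median of 1.79% (1.22 to 2.34%) of reads in Y36C cells on DMSO and 3.13% (2.82 to 5.31%) on E7107 (adjusted p = 0.0211). In WT cells it took 1.52% (0.30 to 1.86%) and 0.74% (0 to 1.33%), and this change did not pass (adjusted p = 0.15). The interaction was 0.838 ± 0.232 (adjusted p = 0.00441). As a share of spliced reads at the acceptor, inclusion was 8.98 and 12.7% in WT cells (adjusted p = 0.0704) and 10.97 and 25.8% in Y36C cells (adjusted p = 9.62e-05), as medians.

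The donor of this exon moved in opposite directions in the 2 genotypes. Reads running past it into the intron made up 35.96 to 48.6% (median 42.6%) in WT cells on DMSO and 63.4 to 70.8% (median 67.8%) on E7107, but 38.2 to 56.8% (median 39.9%) in Y36C cells on DMSO and 10.3 to 24.2% (median 18.0%) on E7107. The 2 drug-treated groups moved apart from their controls without overlap, up in WT and down in Y36C cells, with log-odds of 1.016 ± 0.140 and -1.227 ± 0.186 (adjusted p = 3.82e-05 and 0.000579).

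The SRSF2 cassette exon (chr17:74731854-74731957, 104 bases, minus strand) lies in the 3′ UTR. At the downstream acceptor it took 4.89 to 6.07% (median 5.43%) of reads in WT cells on DMSO and 0.19 to 0.46% (median 0.38%) on E7107. Y36C cells gave 5.55 to 6.98% (median 5.88%) and 4.21 to 5.603% (median 4.56%). Inclusion fell in WT cells without overlap (log-odds -1.623 ± 0.103, adjusted p = 3.66e-08), and the interaction was 1.389 ± 0.118 (adjusted p = 1.28e-09). At the upstream donor the medians were 3.84 and 0.26% in WT cells and 4.35 and 3.08% in Y36C cells, with an interaction of 1.145 ± 0.119 (adjusted p = 2.93e-08). In Y36C cells the fall missed the threshold on all reads (adjusted p = 0.127) and passed it as a share of spliced reads, from a median of 7.25 to 5.32% (log-odds -0.286, adjusted p = 0.0416).

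Skipping of the SRSF2 exon made up 92.0 to 93.5% (median 92.9%) of the spliced reads at that acceptor in WT cells on DMSO and 98.4 to 99.0% (median 98.7%) on E7107 (adjusted p = 3.67e-07). At the donor of the exon nearly all reads ran through in WT cells on E7107, 98.6 to 99.5% (median 98.9%), against 66.5 to 74.9% (median 69.6%) on DMSO. The Y36C groups overlapped there, at medians of 65.8 and 67.1%. On all reads, the junction that skips the exon was also the spliced row of SRSF2 that rose most in Y36C cells, from 74.7 to 80.1% as medians (adjusted p = 0.0489).

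In SRSF3 the 456-base exon (chr6:36567598-36568053, plus strand, in intron 3) took 1.91 to 2.58% (median 2.25%) of reads at the downstream acceptor in WT cells on DMSO and 0.62 to 1.16% (median 0.65%) on E7107. In Y36C cells it took 2.21 to 3.15% (median 2.61%) and 2.36 to 3.91% (median 3.39%). The fall in WT cells was called (log-odds -0.627 ± 0.107, adjusted p = 0.000236), the Y36C groups overlapped (adjusted p = 0.407), and the interaction was 0.777 ± 0.133 (adjusted p = 3.66e-05). At the upstream donor the medians in WT cells were 1.52 and 0.73% (adjusted p = 0.0136) and in Y36C cells 1.86 and 1.81%, and there the interaction missed the threshold (0.38 ± 0.161, adjusted p = 0.0555).

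Splicing out of the same SRSF3 exon moved further. The junction from its donor took 37.5 to 47.3% (median 45.1%) of the reads there in WT cells on DMSO and 3.77 to 5.63% (median 4.34%) on E7107. Y36C cells gave 39.3 to 54.1% (median 41.9%) and 57.3 to 62.9% (median 58.1%). The groups were apart in both genotypes, down in WT and up in Y36C cells (log-odds -2.63 ± 0.12, adjusted p = 2.42e-09, and 0.623 ± 0.129, adjusted p = 0.00416), and this was the called spliced row of SRSF3 with the largest rise in Y36C cells. The second annotated SRSF3 poison exon (98 bases, in intron 2) was read at its upstream donor at up to 0.07% in any sample and was not tested.

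The SRSF7 exons share a donor in intron 3 and differ in their acceptor, so that 1 is 449 bases long (chr2:38976040-38976488, minus strand) and the other 276 bases. At the upstream donor the longer exon took 2.95 to 4.33% (median 3.87%) of reads in WT cells on DMSO, 4.43 to 5.23% (median 4.72%) on E7107, 3.77 to 4.64% (median 4.39%) in Y36C cells on DMSO and 3.33 to 4.07% (median 3.88%) on E7107. The WT groups did not overlap, but the change missed the threshold on all reads (0.211 ± 0.104, adjusted p = 0.106) and passed it as a share of spliced reads (medians 4.10 and 5.36%, adjusted p = 0.0479). The interaction was -0.319 ± 0.113 (adjusted p = 0.0231), the reverse of the sign in SRSF6, SRSF2 and SRSF3.

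At the downstream acceptor the SRSF7 exons took medians of 1.203, 1.41, 1.40 and 1.81% in the 4 groups, which all overlapped. The 276-base exon was read at its upstream donor at up to 0.13% and was not tested. At the acceptor of the longer exon, boundary reads made up 54.9 to 64.0% (median 60.4%) in Y36C cells on DMSO and 35.96 to 51.5% (median 48.0%) on E7107 (log-odds -0.571 ± 0.134, adjusted p = 0.00873), and at the shared donor 70.2 to 81.1% (median 73.6%) and 44.4 to 64.9% (median 55.3%; -0.829 ± 0.166, adjusted p = 0.0034). Intron 3 as a whole had retention of 7.74 to 10% (median 8.89%) and 3.77 to 5.31% (median 4.18%) in Y36C cells, while in WT cells it rose from 8.16 to 13.6%. Both boundaries of intron 3 and both of the longer exon were the 4 falling rows of SRSF7 in Y36C cells.

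**Figure D4:**
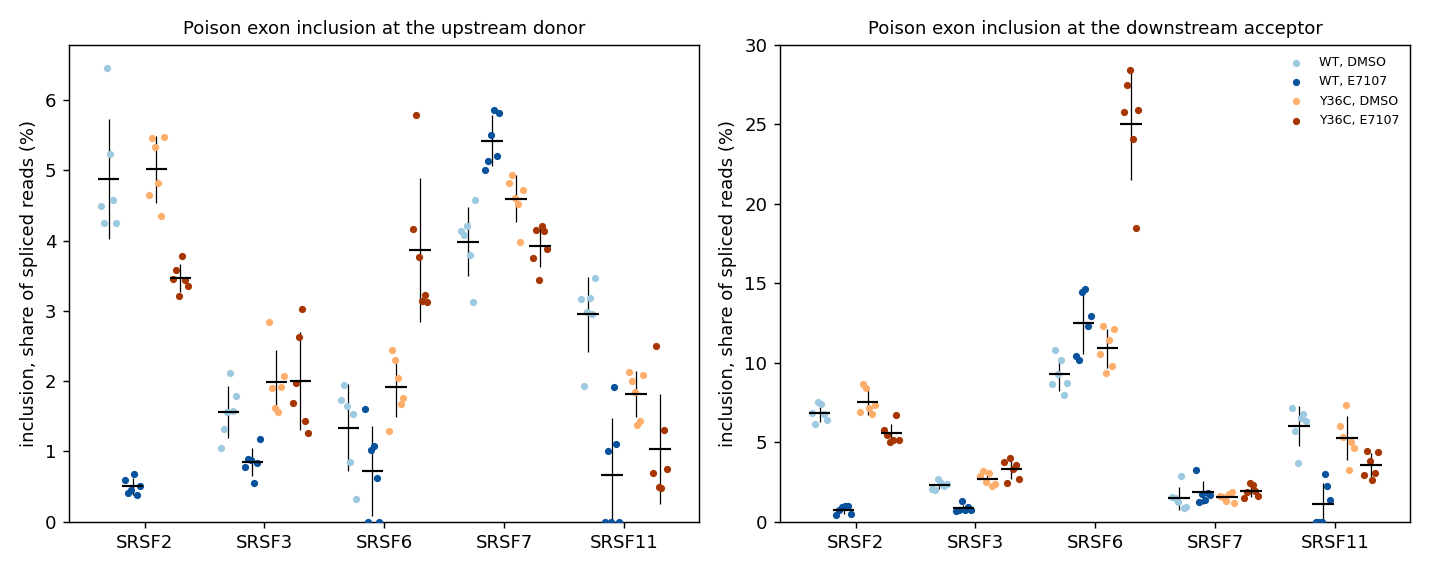
Inclusion of the poison or cassette exon as a share of spliced reads (%, y axis) at the upstream donor (left) and downstream acceptor (right), for the longest such exon of 5 SR genes (x axis); points are samples, bars the mean and lines the SD of 6 samples per group. Inclusion in Y36C cells on E7107 stands above the other groups in SRSF6 at the acceptor (median 25.8%), and inclusion in WT cells on E7107 stands below the other groups in SRSF2 (median 0.82% at the acceptor).

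SRSF10 carries a 363-base exon in its AT-AC intron 2 (chr1:24304401-24304763, minus strand), which is joined upstream to a GT donor inside the intron. That junction took 72.5 to 91.2% (median 76.1%) of the reads at this donor in WT cells on DMSO and 29.0 to 42.3% (median 34.2%) on E7107. In Y36C cells it took 65.0 to 81.4% (median 69.4%) and 76.4 to 91.9% (median 85.2%). It fell in WT cells (log-odds -1.996 ± 0.245, adjusted p = 1.35e-05) and rose in Y36C cells, where the groups overlapped (0.846 ± 0.220, adjusted p = 0.0153), and the interaction was 2.84 ± 0.33 (adjusted p = 1.65e-07). It was the spliced row of SRSF10 with the largest rise in Y36C cells.

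At the donor of the same SRSF10 exon, the boundary PSI was 35.0 to 56.8% (median 42.7%) in WT cells on DMSO and 76.5 to 93.2% (median 85.9%) on E7107. Y36C cells stood at 44.9 to 64.0% (median 59.0%) and 62.3 to 76.0% (median 70.2%), overlapping, with a called rise (0.559 ± 0.176, adjusted p = 0.0372). The junction from this donor to an acceptor at the end of intron 2 took medians of 41.5 and 9.80% in WT cells and 28.0 and 23.3% in Y36C cells, and only the fall in WT cells was called (adjusted p = 8.88e-05, beside 0.321 in Y36C cells).

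**Figure D5:**
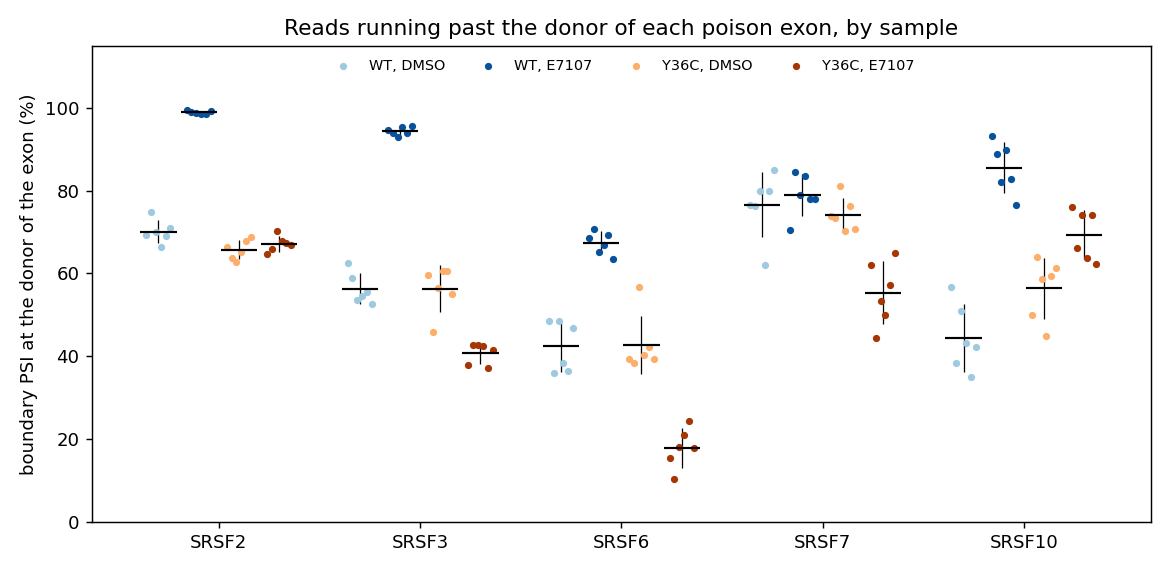
Boundary PSI (%, y axis) at the donor of the poison or cassette exon of 5 SR genes (x axis), the share of reads there that run into the following intron; points are samples, bars the mean and lines the SD of 6 samples per group. WT cells on E7107 lie above their DMSO samples in SRSF2, SRSF3, SRSF6 and SRSF10, and Y36C cells on E7107 lie below theirs in SRSF3 (median 41.9%), SRSF6 (median 18.0%) and SRSF7 (median 55.3%).

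Of the 3 poison exons in intron 2 of SRSF11, the 117-base exon (chr1:70697542-70697658, plus strand) was read most. At the downstream acceptor it took 3.24 to 6.50% (median 5.76%) of reads in WT cells on DMSO and 0 to 2.66% (median 0.63%) on E7107, and 2.93 to 6.49% (median 4.41%) and 2.34 to 4.05% (median 3.11%) in Y36C cells. The WT groups were apart and the Y36C groups overlapped. The fall was called in WT cells (log-odds -1.338 ± 0.265, adjusted p = 0.000785), not in Y36C cells (adjusted p = 0.164), and the interaction was 1.043 ± 0.298 (adjusted p = 0.00563). In WT cells this row passed the filter through the DMSO group alone, so it was selected to fall there. At the upstream donor the medians were 2.62 and 0.41% in WT cells (adjusted p = 0.00117) and 1.64 and 0.65% in Y36C cells, and the interaction missed the threshold (0.57 ± 0.238, adjusted p = 0.0524). The 62-base and 109-base exons had a median of at most 1.32% at the upstream donor in any group, and none of their changes there was called.

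SRSF4 has 5 annotated poison exons. The 136-base exon of its intron 1 (chr1:29495015-29495150, minus strand) was the 1 exon of the 16 in which no in-frame stop was found. It took 1.92 to 5.00% (median 3.42%) of the reads at the upstream donor in WT cells on DMSO and 0 to 1.71% (median 0) on E7107, without overlap (log-odds -1.167 ± 0.231, adjusted p = 0.000778). In WT cells this row passed the filter through the DMSO group alone, so it was selected to fall there. In Y36C cells the exon took 0.78 to 4.03% (median 2.79%) and 0 to 2.36% (median 1.16%), with overlapping groups (adjusted p = 0.137). The interaction did not pass (0.568 ± 0.357, adjusted p = 0.203), so a difference between the genotypes was not shown for this exon.

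The 175-base SRSF4 exon took medians of 7.25 and 4.02% at the downstream acceptor in WT cells and 8.87 and 6.38% in Y36C cells, with overlapping groups and adjusted p of 0.0729 and 0.47. The 184-base exon stayed at group medians of 0.94% or less, and the 195-base and 228-base exons, which share a donor, at group medians of 1.15% or less. The 69-base SRSF7 exon and the 90-base SRSF9 exon were read at up to 0.57 and 0.29% at the downstream acceptor in any sample. The change of the first in Y36C cells was not called (adjusted p = 0.443), and the second could not be tested.

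Outside the annotated poison exons, exon skipping was among the largest rises. In SRSF4 the junction that skips the 90-base exon between introns 4 and 5 (chr1:29475739-29481207) took 5.13 to 9.68% (median 6.62%) of reads at its donor in WT cells on DMSO and 37.6 to 50.5% (median 42.5%) on E7107, and 3.90 to 8.77% (median 6.00%) and 8.58 to 12.9% (median 10.9%) in Y36C cells. It rose in both genotypes, more in WT cells (log-odds 2.20 ± 0.15 and 0.612 ± 0.154, interaction -1.58 ± 0.20, adjusted p = 5.45e-07). Its acceptor row was the SRSF4 row with the largest called rise in Y36C cells.

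In SRSF7 the junction that skips a 36-base exon (chr2:38972330-38973835) rose in both genotypes. At its acceptor it took 8.09 to 13.4% (median 11.8%) in WT cells on DMSO and 22.0 to 25.9% (median 25.1%) on E7107, and 8.79 to 13.8% (median 10%) and 22.2 to 26.6% (median 24.8%) in Y36C cells. Both drug-treated groups lay above both DMSO groups and overlapped with each other. The log-odds were 0.885 ± 0.119 (adjusted p = 3.12e-05) and 0.979 ± 0.115 (adjusted p = 0.000107), with an interaction of 0.094 ± 0.144 (adjusted p = 0.627), so a difference between the genotypes was not shown.

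In SRSF3 a junction that skips the 39-base exon between introns 3 and 4 (chr6:36566761-36569484) was at 0 in all WT samples on DMSO and at 1.14 to 2.20% (median 1.65%) on E7107, and it was not above 0.07% in any Y36C sample. The intron it removes is not annotated, and its row passed the filter in WT cells through the E7107 group alone, so it was selected to rise. In SRSF11 the junction of intron 2 rose at its acceptor from 81.0 to 85.0% (median 84.3%) to 85.8 to 94.1% (median 90.7%) in WT cells (adjusted p = 0.0143), and in Y36C cells from a median of 82.1 to 87.1% (adjusted p = 0.0499). SRSF1, SRSF2, SRSF6, SRSF9 and SRSF10 had no called spliced row that rose in WT cells.

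In Y36C cells the largest called rise of SRSF11 was at an alternative donor in intron 1. The junction from it (chr1:70688482-70694104) took 18.2 to 60.0% (median 28.3%) of reads at that donor on DMSO and 56.5 to 93.3% (median 79.8%) on E7107, while in WT cells it went from 25 to 57.1% (median 33.3%) to 2.63 to 11.8% (median 4.01%). The WT groups were apart and the Y36C groups overlapped at their edges. The log-odds were 2.29 ± 0.40 in Y36C cells (adjusted p = 0.00149) and -2.30 ± 0.27 in WT cells (adjusted p = 9.59e-06), and the interaction was 4.59 ± 0.50 (adjusted p = 5.53e-08).

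The remaining rows with the largest called rise in Y36C cells fell into 2 kinds. The SRSF6 and SRSF7 rows were the junctions that leave the poison exons described above, with medians rising from 60.1 to 82.0% and from 26.4 to 44.7%. The SRSF1, SRSF5 and SRSF9 rows were unannotated junctions at low levels, with medians of 0.74, 0 and 0% on DMSO and 1.67, 0.75 and 0.47% on E7107. The SRSF5 and SRSF9 rows passed the filter through the E7107 group alone and so were selected to rise. With the replicate block the SRSF1 and SRSF9 rises were no longer called (limma, adjusted p = 0.0979 and 0.067).

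Of the falling boundary rows in Y36C cells, 9 of 10 were called higher in WT cells under E7107, near the 83.9% of all tested member boundary rows. Over the series 70.8% were called higher there. The other one, at the shared donor of the SRSF7 exons, was not called in WT cells. Besides those given above, the falling rows were the 5′ boundary of SRSF3 intron 3, from a median of 2.95 to 1.48% (adjusted p = 0.0114), and the 3′ boundary of SRSF4 intron 2, from 4.78 to 2.13% (adjusted p = 0.0176).

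The wider group of 20 SR-related genes, listed for comparison, is given by its counts, which come from the 18 that had rows. These were ACIN1, ARGLU1, BCLAF1, LUC7L, LUC7L2, LUC7L3, PNISR, PNN, RSRC1, RSRC2, RSRP1, SON, SREK1, SRRM1, SRRM2, THRAP3, TRA2A and TRA2B, while SRSF8 and SRSF12 had none. In WT cells 348 of 388 boundary rows rose and 11 fell (89.7 and 2.84%), in Y36C cells 40 of 274 rose and 20 fell (14.6 and 7.3%), and without drug 0 of 261 were called (39 at an unadjusted p under 0.05). Over all boundary rows 70.8% rose and 5.78% fell in WT cells, 26.8 and 1.26% in Y36C cells. The members' shares in Y36C cells, 16.5 and 7.19%, were close to those of this wider group, so they are not particular to the members. TRA2B, an SR-like activator of exon inclusion, had mean retention of 9.46 to 11.98% (median 10.9%) in WT cells on DMSO and 31.25 to 38.2% (median 36.7%) on E7107, against medians of 10.3 and 9.60% in Y36C cells. Its paralog TRA2A stayed at 15.9 to 18.2% (median 17.2%) and 16.3 to 21.3% (median 18.0%) in WT cells, with overlapping groups, although 9 of its 17 boundary rows rose and 2 fell.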

How the data were processed

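Poly(A) RNA-seq reads of 24 HCT-116 samples had been aligned with STAR to hg19, per the labels, and the authors deposited 1 table of PSI percent values per sample, in which the rows of a splice site sum to 100 or to 0. Aligner version and read filters are not given in the sources used here. Of the 1830076 rows of a table, 6433 that were mitochondrial or carried no strand were left out. Members were assigned with GENCODE version 44 lifted to GRCh37, the build of the files. PSI was turned into natural log-odds with an offset of 1 percentage point and fitted with limma 3.58.1 in R 4.3.3 over all rows tested, with Benjamini-Hochberg adjustment over all of them, each comparison on its 12 samples and the interaction on 24. Boundary rows and spliced rows were fitted in 1 model, and shares of spliced reads in another. The fits were tested on simulated data. Group differences are E7107 minus DMSO, and an interaction subtracts the WT effect from the Y36C effect. A spliced junction gives 2 rows, 1 at each of its sites, which share reads. The genes named were all members, each poison exon, the introns with the largest and smallest change and the spliced rows with the largest called rise per gene, TRA2A, TRA2B and the 5 nearest profiles. The members, lists and rules were chosen with earlier results of these data known. Reads of a gene that overlaps on the same strand cannot be told apart from those of SRSF1, SRSF2, SRSF6 and SRSF9. Alternatives were PSI in percentage points, an offset of 0.1, no filter on low values, a replicate block and a minimum change of 10 points.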

Additional observations from a re-analysis of the deposited data

Results flagged for a closer look

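In 40 groups of 6 samples, 1 for each gene and condition, the sample farthest from the others was compared with the critical gap for 6 samples, which chance passes in about 1 of 20 groups. It was passed in 2. The highest sample of SRSF9 in WT cells on DMSO had a mean retention of 28.97%, apart from the other samples of that group, whose median was 28.07%. In Y36C cells on E7107 the highest sample of SRSF11 had 13.94%, where the median was 12.36%.

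The effect of E7107 differed between WT and Y36C cells by the interaction test. Among boundary rows it was higher in Y36C cells in 2 and lower in 118, among spliced rows higher in 132 and lower in 16, and among shares of spliced reads higher in 36 and lower in 24. For inclusion of single exons the interaction, in natural log-odds, was 1.15 at the upstream donor and 1.39 at the downstream acceptor of the SRSF2 exon, 0.78 at the acceptor after the SRSF3 exon, and 0.84 at the donor and 0.87 at the acceptor around the SRSF6 exon. It was 1.04 at the acceptor after the 117-base SRSF11 exon and -0.32 at the donor before the 449-base SRSF7 exon. SRSF5 intron 5 was the 1 intron whose boundaries were both called higher, by 1.0 at the 5′ and 1.46 at the 3′ end.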

How the results depend on the processing

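PSI in percentage points, an offset of 0.1 and no filter on low values kept each of 12 counts of called rows, both directions summed, within 1.5 times its value, while the spliced rows that rose in WT cells went from 16 to 25 with no filter. Annotated sites alone moved none of 20 E7107-minus-DMSO changes of gene means by more than the spread between replicates, although the mean level of SRSF10 fell with them, from 25.7 to 21.37% in WT cells on DMSO. A minimum change of 10 points left 91 spliced rows in WT cells (160 without it), 21 in Y36C cells (60) and 89 for the interaction (148), 12 shares of spliced reads in each of these 3 comparisons (60, 48 and 60), and 14 boundary rows in Y36C cells (33). The median over boundary rows in place of their mean gave a change in WT cells of 39.48 points in SRSF1, 11.11 in SRSF2, 8.166 in SRSF3, 17.14 in SRSF5, 21.89 in SRSF6, 10.06 in SRSF7, 6.631 in SRSF9 and 24.47 in SRSF10, so that the order of the genes differed from that by the mean. In Y36C cells it gave 1.564 in SRSF2, 0.007003 in SRSF3, 6.007 in SRSF5, 1.929 in SRSF6, 0.1207 in SRSF7, 1.187 in SRSF9 and 0.03574 in SRSF11, so that SRSF3, SRSF6, SRSF7 and SRSF11, whose means fell, no longer did. As a share of spliced reads, inclusion of the SRSF2 exon in Y36C cells passed the threshold (-0.311 at the donor and -0.286 at the acceptor), as did the 449-base SRSF7 exon in WT cells (0.271), and 42 other inclusion results kept their side of it. Samples with the same replicate number did not deviate together (correlations of -0.0063 to 0.0070, with at most 2 of 6 samples correlating best with their own number), so they share only a number. The replicate block left 39 spliced rows and 31 shares of spliced reads called in Y36C cells and moved none of 10 other counts by more than 1.5 times. Boundary rows called in Y36C cells went from 23 to 17 rising and from 10 to 7 falling. Y36C calls lost with it include the 5′ boundary of SRSF3 intron 3 and the acceptor boundary of the 449-base SRSF7 exon. In SRSF5 they include the 5′ boundary of intron 6, the 3′ boundaries of intron 7 and of the 757-base intron, and the boundary row at chr14:70235391-70235393. They also include the SRSF10 junction into its exon and that exon's donor boundary, and the skipping junctions of SRSF2 and of SRSF11 intron 2. The cause of these shifts was not tested. Read depth is unknown, so the precision of single values cannot be given, and values from sites of low use rest on an unknown number of reads.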
